A study of Mus musculus with 18 samples.

Results

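The testes of 4 mice killed after 72 h of follicle-stimulating hormone (FSH) were compared with those of 4 mice killed after 12 h, which are 8 of the 18 arrays of the study. The members are all mice whose titles give these treatment times. All 8 were adult male hpg (hypogonadal) mice, 10 weeks old, which cannot make gonadotrophin-releasing hormone and so have had almost no FSH or luteinising hormone of their own. Both groups received recombinant FSH under the skin, 8 IU in 0.2 ml of saline buffer at intervals of 12 h, and were killed 1 h after the last dose. The other arrays are 3 mice at 24 h and 7 hpg males of equal age that had no treatment. Each array held RNA from the whole testis of 1 mouse, so the spread within a group includes the spread between animals. A mouse that was treated for longer also had more doses, and these cannot be told apart. The time of day at killing is not given in the sources used here.

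FSH acts on the testis through a receptor that only Sertoli cells carry, the tall cells that line the seminiferous tubules and support the germ cells. The receptor raises cyclic AMP and activates protein kinase A, which switches on immediate early genes within the hour and, later, genes for metabolism, matrix and secreted proteins. Leydig cells lie between the tubules and make androgen from cholesterol under luteinising hormone, and androgen in turn acts on Sertoli cells through its own receptor. In hpg males the tubules are small, Leydig cells are few and inactive, and germ cell development stops during meiosis.

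Expression is given on the log2 scale of the deposited table, and a gene is represented by its probe set with the highest mean over the 8 arrays. A difference is the 72 h mean minus the 12 h mean, with its standard error (SE), 4 mice against 4, and is called when the limma p adjusted by Benjamini-Hochberg over 22626 probe sets is below 0.05. Of these, 533 were called (2.36%), 279 higher at 72 h (1.23%) and 254 lower (1.12%). By gene, 202 of 12393 were higher (1.63%) and 163 lower (1.32%). These shares by gene are the ones to set beside each count of list members called below. Of the probe sets called, 147 (0.65%) differed at least 2-fold, and over all probe sets the median difference was 0.02. Of the 365 genes called (2.95%), 90 were called in each of the 8 fits that leave out 1 mouse, 55 higher and 35 lower at 72 h. These fits called between 175 probe sets (without 12 h mouse 3) and 544 (without 12 h mouse 1). They called 253 without 12 h mouse 4 and 205, 245 and 233 without 72 h mouse 2, 3 or 4. Mice are numbered as the replicates of their group. For genes whose call rests on particular mice, those mice are named below.

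**Figure D1:**
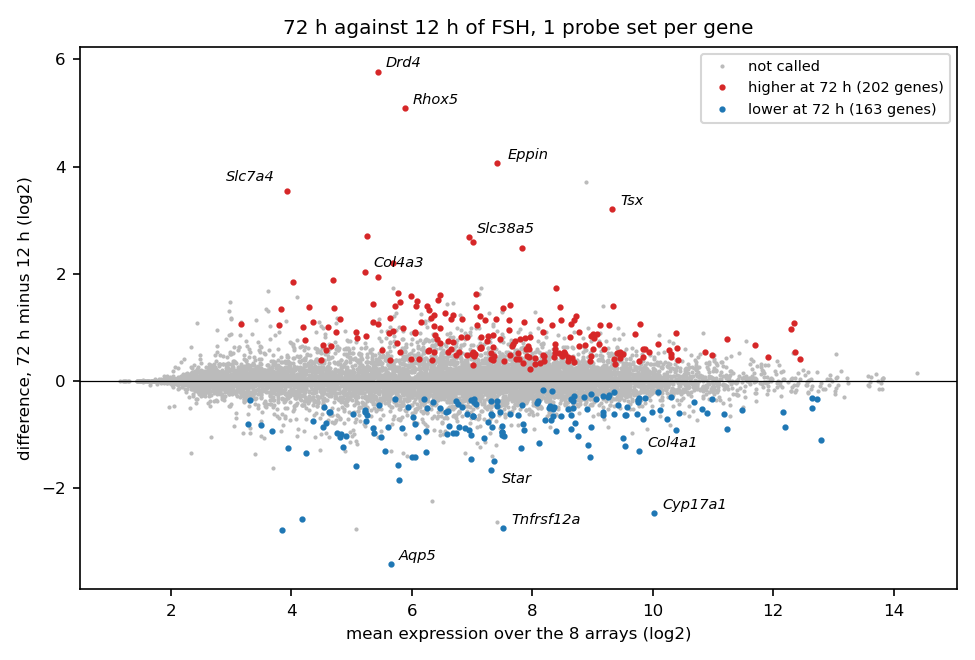
Each point is 1 of 12393 genes, with its mean over the 8 arrays on the horizontal axis and the difference between 72 h and 12 h on the vertical axis, both in log2. The 202 genes called higher (red) reach 5.77 for Drd4, and the 163 called lower (blue) reach -3.42 for Aqp5.

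The 8 arrays were alike in quality. Their medians were 4.49 to 4.55 and their actin 3 prime minus 5 prime differences 1.22 to 1.63, and both groups carried the bacterial Dap spike-in at 8.05 to 8.85. Of the untreated controls, 4 to 7 carried the spike-in too, and their levels are given below as a description, with no test. Correlations between arrays were 0.991 to 0.995 within 12 h, 0.992 to 0.997 within 72 h and 0.986 to 0.994 between the groups. Markers matched the labelled tissue, with Clu of Sertoli cells at 14.3 and 14.5 (means at 12 h and 72 h), Hsd3b1 of Leydig cells at 11.5 and 11.6 and Sycp3 of meiotic cells at 11.7 and 11.9. Of 12 spermatid markers, 11 had a mean below 4, the low end of the scale. Control 6 stood apart from the other mice in these spermatid markers, whose summed level on the log2 scale was 13.88 there and 6.40 to 6.83 in the other 3 controls and the 8 treated mice. In whole testis, more cells of a type and more RNA per cell cannot be told apart.

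Set against the range of controls 4 to 7, the genes called followed several courses. Of the 202 genes higher at 72 h, 63 had a 12 h mean within the range of the controls and a 72 h mean above it (31.2%, against 9.09% of all genes), and 51 went from below the range at 12 h to above it at 72 h (25.2% against 1.54%). A further 28 went from below the range to within it (13.9% against 6.16%). Of the 163 genes lower at 72 h, 52 were above the range at 12 h and within it at 72 h (31.9% against 5.7% of all genes). Another 35 were above it at both times (21.5% against 9.8%), and 34 went from within it to below it (20.9% against 6.59%). The genes called had to differ between the times, so these shares describe them and are no test. Without control 6, the counts of 63, 51 and 52 became 51, 61 and 42.

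Among the genes called, the largest differences on the log2 scale were in Drd4, Rhox5 and Eppin. They were rises in genes that Sertoli cells express and that androgen is known to induce. Slc7a4 (3.54) and Aqp5 (-3.42), which are not in the list of such genes, differed more than Tsx (3.21), which is. Of 8 measured genes in this list, 4 were called higher (Drd4, Rhox5, Eppin and Tsx) and 0 lower (over all genes, 1.63% and 1.32%). The median difference of 1.77 fell between the 4 called and the 4 not called. Drd4, a dopamine receptor, read 2.65, 2.52, 2.50 and 2.52 in the 12 h mice and 7.70, 7.93, 8.64 and 9.00 in the 72 h mice. The 12 h values lay at the low end of the scale and every 72 h mouse was far above them. Drd4 rose by 5.77 ± 0.28 on the log2 scale (SE, n = 4 against 4, limma adjusted p = 0.00186), and its other probe set by 2.84. Rhox5, an X-linked homeobox factor and a classic androgen-induced gene of Sertoli cells, read 3.76, 3.69, 3.21 and 2.67 at 12 h and 8.35, 8.07, 8.68 and 8.59 at 72 h. It rose by 5.09 ± 0.26 (limma adjusted p = 0.00186). The 12 h means of Drd4 and Rhox5 lay below 4, the low end of the scale, so no fold is given for them. Eppin, a protease inhibitor of the testis and epididymis, went from 6.02, 5.89, 4.34 and 5.29 to 9.26, 9.69, 9.30 and 9.52 and rose 16.7-fold. Tsx, a testis-specific X-linked gene, went from 8.17, 8.22, 7.47 and 7.04 to 10.65, 11.14, 10.86 and 11.09 and rose 9.24-fold. Controls were 1.97 to 2.36 for Drd4, 3.02 to 5.56 for Rhox5, 5.81 to 7.10 for Eppin and 8.06 to 9.30 for Tsx. The 72 h mice lay above every control in all 4 genes, while the 12 h mice overlapped the controls in Rhox5, Eppin and Tsx and lay just above them in Drd4. The 12 h means of Eppin (5.38) and Tsx (7.73) lay below every control, while 12 h mice 1 and 2 lay within the controls in both genes. Gpd1, Cldn3, Pcsk6 and Tubb3, the other measured genes of the list, were not called, at 0.28, 0.32, 0.25 and 0.00. Of these, Gpd1 (means 6.21 and 6.49) and Tubb3 (9.17 at both times) lay above every control at 12 h and 72 h. Their controls were 4.25 to 4.36 and 5.81 to 6.37. Cldn3 and Pcsk6 overlapped the controls at both times. The rises of Drd4, Rhox5, Eppin and Tsx were called whichever mouse was left out.

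**Figure D2:**
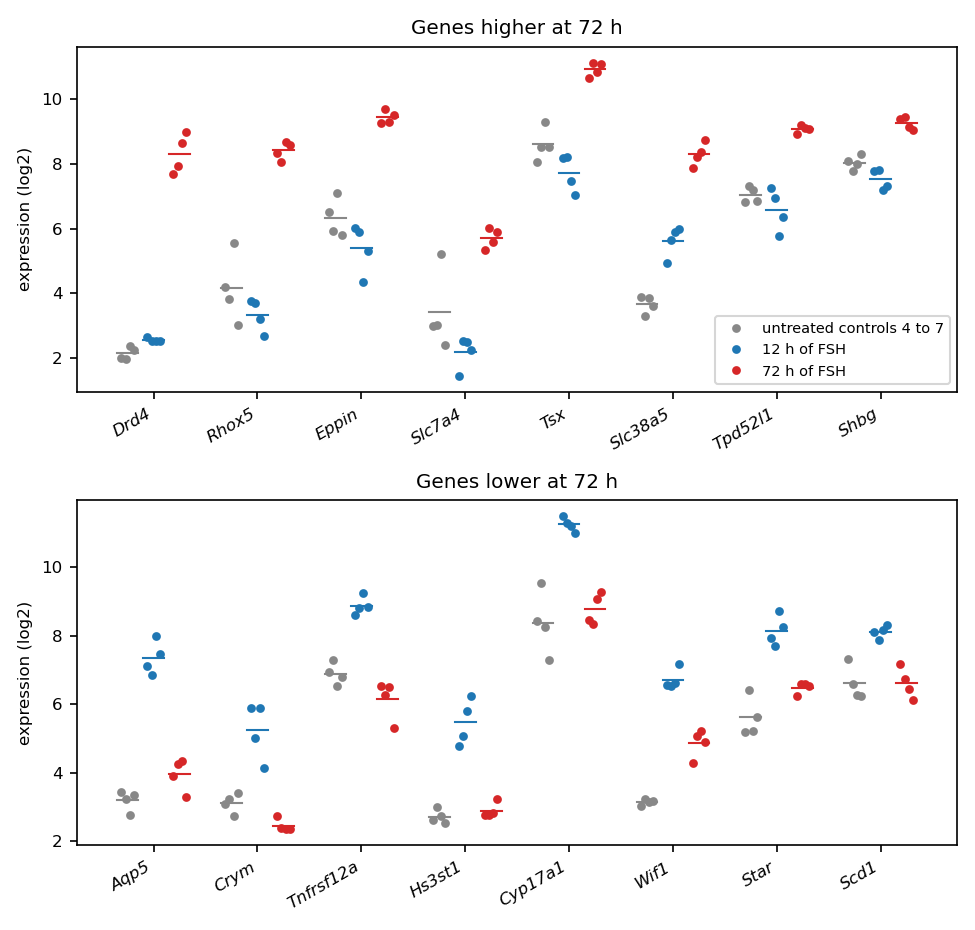
Each dot is 1 mouse and each line a group mean, in log2 expression on the vertical axis, for 8 genes higher at 72 h (upper panel) and 8 lower (lower panel) in untreated controls 4 to 7, after 12 h and after 72 h of FSH. In every gene shown the 12 h and 72 h mice do not overlap. Rhox5, Eppin and Tsx overlapped the controls at 12 h, and the 12 h means of Eppin and Tsx lay below every control. Aqp5, Hs3st1, Cyp17a1 and Scd1 were above every control at 12 h and overlapped the controls at 72 h. The 72 h mean of Aqp5 was still above every control.

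Other Sertoli cell genes moved in part. Among 18 Sertoli markers, 6 were called higher, 0 lower, 9 had a negative difference, and the median difference was 0.00. At 72 h 6 markers lay wholly higher and 4 wholly lower (over all probe sets, 4.41% and 4.03%). Sox9 and Cldn11 (-0.66 ± 0.20) were among the 4, none of which was called. Those called higher were Rhox5, Tsx, Eppin, Shbg, Ctsl and Cst12. Shbg encodes the testicular androgen-binding protein, Ctsl is a cathepsin that Sertoli cells secrete, and Cst12 is a cystatin. Shbg read 7.79, 7.81, 7.19 and 7.31 at 12 h and 9.39, 9.46, 9.15 and 9.06 at 72 h, a rise of 1.74 ± 0.17 (log2, SE, limma adjusted p = 0.00699). Ctsl rose by 0.97 ± 0.08, from 11.8 to 12.8, and Cst12 by 1.09 ± 0.17. The 12 h means of Shbg, Ctsl and Cst12 (7.52, 11.81 and 11.80) lay below every control (lowest 7.78, 12.04 and 12.54). At 72 h Shbg and Ctsl lay above every control, and Cst12 overlapped the controls (12.59 to 13.09 against 12.54 to 12.75). The summed level of the 18 markers was 15.50 to 15.69 at 12 h and 15.70 to 16.00 at 72 h, and the part of cell number in the rises was not tested. Among the 12 markers not called, Clu changed by 0.15 ± 0.12, Wt1 by -0.29 ± 0.20 and Sox9 by -0.53 ± 0.12 (adjusted p = 0.0739). Cst9, a cystatin related to Cst12 and named after its values were seen, had a large difference that was not called, 3.71 ± 1.75 (adjusted p = 0.429), and the mice of each group differed widely, from 3.74 to 10.40 at 12 h and from 8.36 to 11.62 at 72 h. Cst12 was called only without 12 h mouse 1 or 72 h mouse 2 among the 8 fits that leave out a mouse (adjusted p up to 0.0708).

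The other large rises were in genes of various kinds. Slc7a4, of the family of cationic amino acid transporters, read 1.43, 2.50, 2.48 and 2.22 at 12 h and 5.34, 6.01, 5.58 and 5.88 at 72 h, a rise of 3.54 ± 0.27. Slc38a5, a glutamine transporter, went from 4.93, 5.63, 5.90 and 5.98 to 7.86, 8.23, 8.36 and 8.75, a rise of 2.69 ± 0.27, and its 12 h mice were already above the 3.28 to 3.88 of the controls. They were the only 2 of 25 amino acid transporters called. Klk1b24, a tissue kallikrein, rose by 2.70 ± 0.38, Derl3, a protein of endoplasmic reticulum quality control, by 2.59 ± 0.35, Tpd52l1 by 2.49 ± 0.31, D17H6S56E-5 by 2.21 ± 0.15, Aldh1l1, a folate enzyme, by 1.94 ± 0.19, Myh1, a myosin heavy chain, by 1.88 ± 0.21 and Zcchc18 by 1.84 ± 0.27. Derl3 was 5.08 to 6.43 at 12 h, below the 7.80 to 8.27 of the controls, and 7.83 to 8.77 at 72 h. Kallikreins and myosin heavy chains are families of near-identical transcripts, so their probe sets may share signal. Klk1b24 missed the threshold without 12 h mouse 3 or 4 or 72 h mouse 2 (adjusted p up to 0.0616), Derl3 without 12 h mouse 4 or 72 h mouse 2 (up to 0.0537) and Zcchc18 without 12 h mouse 3 or 4 or 72 h mouse 2 or 3 (up to 0.0714).

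The enzymes of cholesterol synthesis turn acetyl-CoA through mevalonate, isoprenoids and squalene into cholesterol, and the factor SREBP2 induces most of them together when sterols are scarce. Of 17 measured enzymes, 7 were called lower at 72 h, 1 higher (over all genes, 1.32% and 1.63%) and 9 neither. A negative difference was found in 14, and the median was -0.53. The promoters of 4 of the 7 are shown as the 250 bases before the start site, with capitals for the CCAAT box on either strand (read as ATTGG on the other) and for TCACNCCAC, a core of the sterol element, on either strand. Sequences are from RefSeq on GRCm38.p6: Hmgcs1 at chr13:119690101-119690350 (plus strand), Msmo1 at chr8:64733579-64733828 (minus), Idi1 at chr13:8885356-8885605 (plus) and Cyp51 at chr5:4104698-4104947 (minus).
Hmgcs1: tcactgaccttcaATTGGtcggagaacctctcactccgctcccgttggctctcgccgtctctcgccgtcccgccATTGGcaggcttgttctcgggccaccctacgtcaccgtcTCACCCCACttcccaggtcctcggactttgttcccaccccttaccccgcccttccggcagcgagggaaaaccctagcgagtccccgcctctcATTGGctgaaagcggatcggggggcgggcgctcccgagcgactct
Msmo1: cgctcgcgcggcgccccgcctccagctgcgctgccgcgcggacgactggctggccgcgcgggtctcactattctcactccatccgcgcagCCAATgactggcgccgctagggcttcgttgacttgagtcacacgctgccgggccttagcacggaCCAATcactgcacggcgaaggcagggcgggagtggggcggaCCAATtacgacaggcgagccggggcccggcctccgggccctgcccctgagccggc
Idi1: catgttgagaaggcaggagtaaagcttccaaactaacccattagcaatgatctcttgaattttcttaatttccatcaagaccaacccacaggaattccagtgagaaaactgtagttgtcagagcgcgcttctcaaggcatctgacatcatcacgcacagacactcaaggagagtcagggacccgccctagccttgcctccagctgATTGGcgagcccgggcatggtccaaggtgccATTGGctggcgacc
Cyp51: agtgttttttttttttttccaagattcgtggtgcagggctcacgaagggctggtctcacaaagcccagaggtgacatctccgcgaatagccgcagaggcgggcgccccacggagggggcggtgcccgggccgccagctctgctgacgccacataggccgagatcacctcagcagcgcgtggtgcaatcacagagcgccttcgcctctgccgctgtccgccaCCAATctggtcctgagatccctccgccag
A CCAAT box lay within the 300 bases around the start site (250 before to 50 after) of all 14 measured genes of the pathway that have such a window, against 41.1% of all genes and 37.4% of all windows. It was in the 5 called lower and in the 8 not called alike, so it did not separate them. The sterol core was found in 1 of the 14, Hmgcs1, against 1.44% of all genes and 1.24% of all windows.

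The 7 enzymes belong to early and late steps of the pathway. At its entry Hmgcs1, which makes the precursor of mevalonate, read 11.20, 10.97, 11.25 and 11.37 at 12 h and 10.82, 10.51, 10.55 and 10.55 at 72 h and fell by 0.59 on the log2 scale. Idi1 and Fdps build the isoprenoid chain. Idi1 went from 8.61, 8.74, 9.10 and 8.98 to 8.06, 7.64, 7.96 and 8.01, and Fdps from 9.17, 9.23, 9.23 and 9.45 to 8.29, 8.16, 8.40 and 8.11, differences of -0.94 ± 0.14 and -1.03 ± 0.09. Sqle, the squalene epoxidase, went from 8.35, 8.24, 8.48 and 8.65 to 7.31, 6.88, 7.35 and 7.19, the largest fall of the list at -1.24 ± 0.13 (2.37-fold, limma adjusted p = 0.00814). Of the later enzymes Cyp51 fell by 0.95, Dhcr7, which makes cholesterol itself, by 1.03 and Msmo1 by 0.71. The 12 h and 72 h mice did not overlap in any of these 7 genes (over all probe sets, 4.03% lay wholly lower and 4.41% wholly higher at 72 h), and the 12 h mice lay above every control. At 72 h the mice overlapped the controls in 6 of the 7 genes, and in Dhcr7 they stayed above them (6.89 to 7.13 against 6.32 to 6.67). Of the 6, Hmgcs1, Cyp51 and Sqle still had 72 h means above every control (10.61, 7.01 and 7.18 against highest controls of 10.52, 6.87 and 7.00). The 72 h means of Fdps, Idi1 and Msmo1 lay within the controls. Mvd (-1.11 ± 0.23, adjusted p = 0.0631) and Nsdhl (-0.45 ± 0.10, adjusted p = 0.0806) did not overlap either and were not called. Tm7sf2, a sterol reductase, was the exception, higher by 0.66 ± 0.11, from 4.28 to 4.36 at 12 h to 4.66 to 5.19 at 72 h, against 4.26 to 4.36 in controls.

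Fdps, Cyp51, Dhcr7 and Sqle were called whichever mouse was left out. Idi1 was not called without 12 h mouse 3 or 4 or 72 h mouse 3 or 4 (adjusted p up to 0.0612). Hmgcs1 was called only without 12 h mouse 2 or 72 h mouse 1 (up to 0.111), Msmo1 only without 12 h mouse 1 (up to 0.122) and Tm7sf2 only without 72 h mouse 4 (up to 0.107). Without 12 h mouse 3 or 4 or 72 h mouse 3 or 4 the list therefore held only 4 enzymes called lower. Hmgcs1 was not called after quantile normalisation (adjusted p = 0.0715), nor Msmo1 in the fit with the 12 spiked arrays (0.0644).

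**Figure D3:**
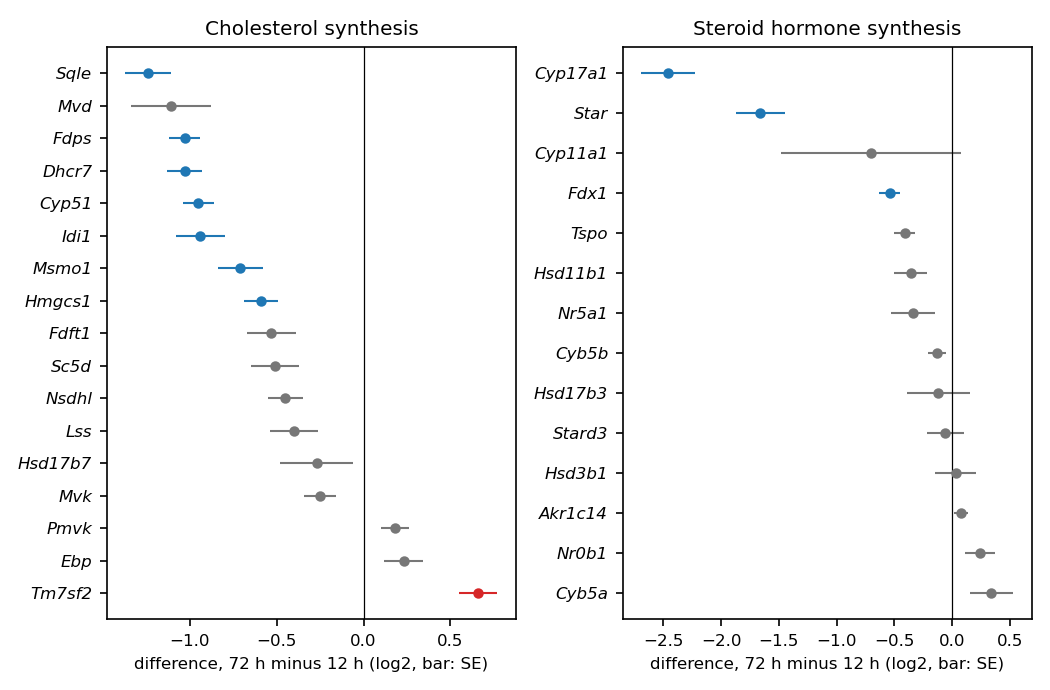
Points are the difference between 72 h and 12 h on the horizontal axis, in log2, with bars of 1 SE, for the 17 measured enzymes of cholesterol synthesis and the 14 measured genes of steroid hormone synthesis, red where called higher, blue where called lower and grey where not called. Sqle at -1.24 and Tm7sf2 at 0.66 bound the left panel, and Cyp17a1 stands apart at -2.46 in the right panel.

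Of 17 measured genes that move and sense sterols, 3 were called higher and 0 lower, with a median of 0.09: Cyp27a1, which hydroxylates the side chain of cholesterol, rose by 1.04 ± 0.14, Npc2, a lysosomal carrier of cholesterol, by 0.60 ± 0.08 and Insig2, which holds SREBP in the endoplasmic reticulum, by 0.38 ± 0.07. At 72 h 6 of the 17 lay wholly higher, the 3 called among them, and 3 wholly lower (over all probe sets, 4.41% and 4.03%). Abca1 lay wholly higher and was not called (0.39 ± 0.09, limma adjusted p = 0.0862). Apoe, Stard4 and Scap, which carry sterols or escort SREBP, lay wholly lower, at -0.82, -0.68 and -0.33, and were not called. Of 38 genes of fatty acid and lipid metabolism, 5 were called lower and 0 higher (over all genes, 1.32% and 1.63%). A positive difference was found in 24, and the median was 0.02. The 5 make or modify fatty acids. Scd1, the stearoyl-CoA desaturase, read 8.11, 7.86, 8.17 and 8.32 at 12 h and 7.16, 6.74, 6.45 and 6.13 at 72 h, a difference of -1.49 ± 0.22. Acly, which supplies cytosolic acetyl-CoA, fell by 0.60, and Fasn, Fads2 and Elovl5 by 0.29, 0.27 and 0.30. Fabp3, a fatty acid carrier, missed the threshold at 0.99 ± 0.20 (adjusted p = 0.0538). Scd1 was not called without 12 h mouse 3 or 4 or 72 h mouse 2 or 3 (adjusted p up to 0.07), and Acly was called only without 72 h mouse 1 or 2 (up to 0.0861). Fasn was called only without 72 h mouse 3 (up to 0.114), Fads2 only without 12 h mouse 1 (up to 0.124) and Elovl5 in no such fit (up to 0.123), and 0 to 3 members of the list were called lower in these fits. Cyp27a1 was not called without 12 h mouse 3 or 72 h mouse 2, 3 or 4 (up to 0.0549), Npc2 without 12 h mouse 3 or 4 (up to 0.0551) and Insig2 except without 12 h mouse 2 (up to 0.129). With the error taken from all 18 arrays, Npc2 (0.323), Insig2 (0.0658), Acly (0.103), Fasn (0.361), Fads2 (0.649) and Elovl5 (0.624) were not called.

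Of 14 measured genes of steroid hormone synthesis, 3 were called lower at 72 h (Star, Fdx1 and Cyp17a1) and 0 higher (over all genes, 1.32% and 1.63%). The median was -0.24. Cyp17a1, the enzyme that turns progestins into androgens, read 11.50, 11.28, 11.20 and 11.01 at 12 h and 8.46, 8.35, 9.07 and 9.28 at 72 h. Its 12 h mice were above every control (7.30 to 9.55) and its 72 h mice lay within the controls. The difference was -2.46 ± 0.23, 5.49-fold (limma adjusted p = 0.00635). Star, which carries cholesterol into the mitochondrion, went from 7.92, 7.70, 8.71 and 8.26 to 6.25, 6.58, 6.59 and 6.52, a difference of -1.66 ± 0.21, and its 2 other probe sets gave -1.69 and -1.31. Fdx1, the ferredoxin that feeds electrons to the side-chain cleavage enzyme, fell by 0.54. Cyp11a1, the side-chain cleavage enzyme itself, was not called at -0.70 ± 0.78, with mice spread from 4.42 to 6.78 at 12 h and from 3.56 to 6.59 at 72 h. Hsd3b1 differed by 0.03 ± 0.18 and Hsd17b3 by -0.12 ± 0.27. Over 12 Leydig cell markers the summed level was 12.65 to 13.08 at 12 h and 12.47 to 12.73 at 72 h, which overlap. Vcam1, in the same marker list, rose by 1.39 ± 0.23. Cyp17a1 and Star were called whichever mouse was left out. Fdx1 was called only without 12 h mouse 1 or 2 or 72 h mouse 3 (adjusted p up to 0.0882) and Vcam1 only without 12 h mouse 2 or 3 (up to 0.0861). Fdx1 was also not called after quantile normalisation (0.0503) or with the error from all 18 arrays (0.0536).

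Immediate early genes are induced for a short time by a fresh signal. Of 27 measured, 4 were called lower at 72 h (Jun, Jund, Nr4a1 and Dusp1) and 0 higher (over all genes, 1.32% and 1.63%). The median was -0.18, and 13 had a mean below 4. Both groups were killed at the same interval after a dose. Nr4a1, an orphan nuclear receptor, read 6.28, 6.53, 7.43 and 6.79 at 12 h and 5.22, 5.25, 5.54 and 5.34 at 72 h, against 4.65 to 5.19 in controls. Jun, part of the AP-1 factor, went from 6.65, 6.43, 7.00 and 6.76 to 5.66, 4.80, 5.10 and 5.59, against 6.25 to 7.64 in controls. Both differed by -1.42, with SE of 0.23 and 0.22, but Nr4a1 was above all controls at 12 h and Jun was below all controls at 72 h. Dusp1, a phosphatase that switches off MAP kinases, differed by -0.96 ± 0.13 and Jund by -0.61 ± 0.07. Fos (-1.39 ± 0.30, adjusted p = 0.0688) and Egr1 (-0.92 ± 0.26, adjusted p = 0.152) did not overlap between the groups and were not called. Dusp1 and Jund were called whichever mouse was left out, though not with the error from all 18 arrays (adjusted p = 0.157 and 0.0551). Jun was not called without 12 h mouse 3 or 4 or 72 h mouse 3 (up to 0.0732), and Nr4a1 was called only without 12 h mouse 1 or 3 (up to 0.0905).

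The promoters of Nr4a1 and Dusp1 are shown because they hold several copies of TGACG, the half-site that the cyclic AMP response factor CREB binds, given in capitals on either strand (CGTCA on the other). They lie at chr15:101266596-101266845 (plus strand) and chr17:26508473-26508722 (minus), again the 250 bases before the start site from RefSeq on GRCm38.p6.
Nr4a1: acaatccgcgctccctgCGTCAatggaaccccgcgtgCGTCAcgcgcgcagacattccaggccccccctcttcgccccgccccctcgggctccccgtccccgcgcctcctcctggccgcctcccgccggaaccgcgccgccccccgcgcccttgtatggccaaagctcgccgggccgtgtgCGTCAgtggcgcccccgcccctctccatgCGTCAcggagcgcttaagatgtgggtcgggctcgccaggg
Dusp1: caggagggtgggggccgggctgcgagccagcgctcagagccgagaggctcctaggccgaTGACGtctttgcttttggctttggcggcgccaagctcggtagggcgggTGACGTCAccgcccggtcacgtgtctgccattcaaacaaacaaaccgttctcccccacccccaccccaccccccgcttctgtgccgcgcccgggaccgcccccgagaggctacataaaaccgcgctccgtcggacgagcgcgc
The half-site occurred 4 times before Nr4a1 and 3 times before Dusp1, where 2 of the 3 overlap in a palindrome. Within the 300-base windows it was present in 12 of 20 immediate early genes, against 23.0% of all genes and 20.8% of all windows. It was in 2 of the 4 called lower and in 10 of the 16 not called.

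Of 32 measured members of the FSH receptor and cyclic AMP pathway, 2 were called lower and 0 higher, with a median of 0.00. Prkaca, the catalytic subunit of protein kinase A, read 7.61, 7.62, 7.61 and 7.56 at 12 h and 7.20, 7.23, 7.26 and 7.20 at 72 h, a small difference with very little spread (-0.38 ± 0.03, limma adjusted p = 0.00418). Adcy3, an adenylate cyclase, fell by 0.58. Fshr, the receptor itself, was 5.23 to 5.52 at 12 h and 4.96 to 5.68 at 72 h (-0.01 ± 0.16), and both groups lay below the 6.24 to 6.78 of the controls. Of 15 genes of inhibin, activin and follistatin 0 were called by limma. In 0 of them did the groups not overlap (over all probe sets, 4.41% lay wholly higher and 4.03% wholly lower at 72 h), so this count is near that share. Inha, the inhibin alpha subunit and a direct product of FSH action, was 11.57 to 12.04 at 12 h and 11.87 to 11.99 at 72 h, against 9.81 to 10.31 in controls. Inhbb and Inhba each differed by -0.12, with SE of 0.09 and 0.20, and Amh was at the bottom of the scale at 1.54 to 1.58 in all 8 mice. Prkaca was not called with the error from all 18 arrays (0.087) or with trended, robust variances (0.0652). Adcy3 was called only without 12 h mouse 1 (up to 0.13).

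In the basement membrane, chains of collagen IV moved in opposite directions. Collagen IV is a network of 3-chain molecules, of alpha 1 and alpha 2 chains in most tissues and of alpha 3, alpha 4 and alpha 5 in some, the testis among them. Each pair of genes lies head to head on opposite strands. The RefSeq start sites of Col4a1 and Col4a2 on GRCm38.p6 chromosome 8 are 21 bases apart, and their 300-base windows share 78 bases. Col4a1 read 10.13, 10.31, 10.68 and 10.57 at 12 h and 8.93, 9.07, 9.32 and 9.19 at 72 h, and Col4a2 went from 8.55, 8.48, 8.78 and 8.47 to 7.72, 7.81, 8.10 and 7.76. Both were lower at 72 h, by -1.30 ± 0.14 and -0.72 ± 0.10, and both stayed above every control (7.10 to 7.80 and 6.34 to 7.06). Col4a3 went from 4.57, 4.35, 3.97 and 3.95 to 6.19, 6.24, 6.25 and 6.32, and Col4a4 from 3.71, 3.70, 3.51 and 3.50 to 4.64, 4.88, 5.04 and 5.38. These rose by 2.04 ± 0.14 and 1.38 ± 0.15, and in Col4a4 every 12 h mouse lay below the controls (3.77 to 4.42). Col4a5 was not called at 0.47 ± 0.20.

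Other matrix genes were mixed. Of 46 collagens, laminins and matrix genes, 5 were called higher and 3 lower, with a median of 0.14. Lamc3, the laminin gamma 3 chain, read 5.43, 5.82, 5.95 and 5.78 at 12 h and 7.23, 7.17, 6.77 and 6.74 at 72 h (1.23 ± 0.16), Lamb2, the laminin beta 2 chain, rose by 0.59 ± 0.08 and Col5a2 by 1.61 ± 0.27. Timp3, an inhibitor of matrix metalloproteinases, fell by 1.20. Col4a1, Col4a3, Col4a4 and Lamc3 were called whichever mouse was left out. Col4a2 was not called without 12 h mouse 3 or 72 h mouse 2 or 4 (adjusted p up to 0.0641) nor Lamb2 without 12 h mouse 3 or 72 h mouse 2, 3 or 4 (up to 0.0587). Timp3 was called only without 12 h mouse 1 or 2 (up to 0.101) and Col5a2 only without 12 h mouse 4 (up to 0.0951). With the error from all 18 arrays Col4a2 (0.106), Lamb2 (0.187) and Col5a2 (0.151) were not called.

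**Figure D4:**
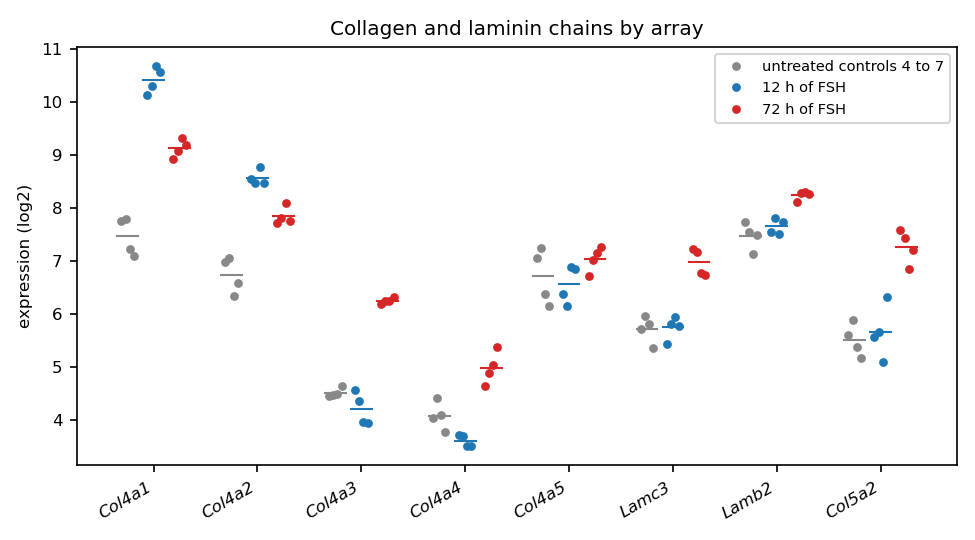
Each dot is 1 mouse and each line a group mean, in log2 expression on the vertical axis, for 5 collagen IV chains, 2 laminin chains and Col5a2 in untreated controls 4 to 7, after 12 h and after 72 h of FSH. Col4a1 and Col4a2 fell from 12 h to 72 h and stayed above the controls, while Col4a3 and Col4a4 rose above both other groups.

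Testis macrophages lie mostly beside the Leydig cells. Of 16 measured macrophage markers, 4 were called higher at 72 h and 0 lower (over all genes, 1.63% and 1.32%). All 16 had a positive difference, and the median was 0.53. Mrc1, the mannose receptor of resident macrophages, read 7.95, 7.55, 7.71 and 7.65 at 12 h and 8.76, 8.63, 8.54 and 8.63 at 72 h, a rise of 0.92 ± 0.09 (limma adjusted p = 0.00699). Cd68, a lysosomal glycoprotein of phagocytes, went from 5.57, 5.71, 5.92 and 5.69 to 7.30, 6.55, 6.65 and 7.09, a rise of 1.18 ± 0.18. Fcer1g, an adaptor of Fc receptors, rose by 1.40 ± 0.21, and Laptm5, a lysosomal protein of blood cells, by 1.10 ± 0.19. C1qa missed the threshold at 0.95 ± 0.19 (adjusted p = 0.0526) and Csf1r, the receptor that macrophages need to survive, at 0.55 ± 0.18 (adjusted p = 0.207). The summed level of the 16 markers was 9.72 to 10.08 at 12 h, 10.53 to 10.92 at 72 h and 10.01 to 10.52 in controls. Itgam, Cd163, Cd14, Cx3cr1 and Aif1 had means below 4, and differences of 0.03, 0.04, 0.18, 0.03 and 0.37. Mrc1 was called whichever mouse was left out. Fcer1g was called only without 12 h mouse 1 or 2 or 72 h mouse 3 (adjusted p up to 0.0671), Laptm5 only without 72 h mouse 1 or 3 (up to 0.0911) and not with the mean of its probe sets (0.0555), and Cd68 was not called without 12 h mouse 2, 3 or 4 or 72 h mouse 4 (up to 0.0675).

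Lysosomal genes, which both macrophages and Sertoli cells express strongly, were partly higher too. Of 25 measured hydrolases and other lysosomal proteins, 4 were called higher and 0 lower (over all genes, 1.63% and 1.32%). A positive difference was found in 20, and the median was 0.25. Ctsc, a cathepsin of immune cells, went from 6.60, 6.48, 6.77 and 6.77 to 7.43, 7.95, 8.03 and 7.73, a rise of 1.13 ± 0.14. Neu1, a sialidase, rose by 0.67 ± 0.11, and Ctsl and Npc2 are given above. Ctsh had the lowest value of the list, -1.14 ± 0.45, and was not called. The macrophage marker sum moved with these genes between the 2 times, and its part in them was not tested. Neu1 was called only without 12 h mouse 2 (adjusted p up to 0.103) and Npc2 not without 12 h mouse 3 or 4 (up to 0.0551). Ctsl and Ctsc were called whichever mouse was left out, but with the error from all 18 arrays Ctsc (0.163) and Npc2 (0.323) were not called.

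**Figure D5:**
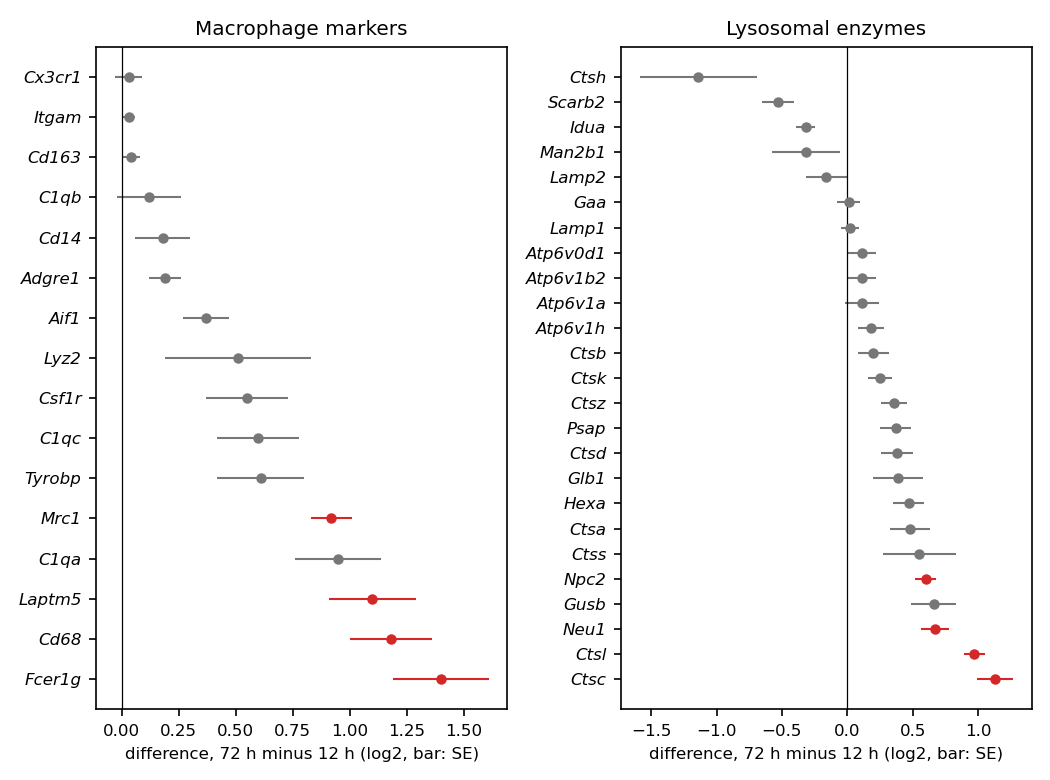
Points are the difference between 72 h and 12 h on the horizontal axis, in log2, with bars of 1 SE, for 16 macrophage markers and 25 lysosomal genes, red where called higher and grey where not called. All 16 macrophage markers lie above 0, from 0.03 to 1.40, and the lysosomal genes range from -1.14 for Ctsh to 1.13 for Ctsc.

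Contractile genes of the peritubular myoid cells, the thin muscle-like layer around each tubule, were lower in part. Of 14 markers, 3 were called lower and 0 higher (over all genes, 1.32% and 1.63%). A negative difference was found in 12, and the median was -0.22. Tagln, an actin-binding protein, read 9.86, 9.49, 9.30 and 10.01 at 12 h and 8.46, 8.26, 7.78 and 8.47 at 72 h (-1.42 ± 0.21), and Flna, a filamin, and Tpm1, a tropomyosin, fell by 0.64 and 0.63. Acta2 and Myh11, among the 11 markers not called, differed by -0.13 ± 0.13 and -0.16 ± 0.17. The summed level of the markers was 13.13 to 13.39 at 12 h and 12.84 to 13.17 at 72 h. Flna was called whichever mouse was left out, Tpm1 not without 12 h mouse 3 (adjusted p = 0.0533) and Tagln not without 12 h mouse 4 or 72 h mouse 2 or 4 (up to 0.0671). Tagln (0.0786) and Tpm1 (0.0885) were not called with the error from all 18 arrays.

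Signals between cells changed in single genes. Igf1, a growth factor made by Sertoli, Leydig and myoid cells, read 9.27, 9.22, 9.15 and 9.40 at 12 h and 9.96, 10.40, 10.46 and 10.48 at 72 h, a rise of 1.07 ± 0.12. Igf2 went the other way, from 8.77, 9.00, 9.33 and 9.28 to 8.31, 8.23, 8.21 and 8.07 (-0.89 ± 0.13). Igf1 was above every control at both times and Igf2 below every control at both. Igfbp3, a binding protein of both, was 7.55 to 9.90 at 12 h and 5.08 to 6.56 at 72 h and was not called (-2.62 ± 0.55, adjusted p = 0.0645). Tgfb1 rose by 1.37 ± 0.15 from 3.91 to 4.31 at 12 h to 5.07 to 5.65 at 72 h, the only 1 of 31 genes of that signalling list called. Kitl, the Sertoli cell ligand of the germ cell receptor Kit, read 10.51, 10.43, 10.55 and 10.86 at 12 h and 9.69, 9.94, 9.91 and 10.02 at 72 h (-0.70 ± 0.11), and its 3 other probe sets gave -0.70, -0.70 and -0.75 without being called. Wif1, a secreted inhibitor of Wnt proteins, fell by 1.85 from 6.53 to 7.16 at 12 h to 4.28 to 5.22 at 72 h, still above the 3.02 to 3.22 of the controls. Igf1 was not called with the error from all 18 arrays (0.0929). Igf2 was called only without 12 h mouse 1 or 2 or 72 h mouse 1 (up to 0.062), and Kitl not without 12 h mouse 3 or 72 h mouse 2, 3 or 4 (up to 0.0744) or with the mean of its probe sets (0.115).

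Besides Cyp17a1, Star, Wif1, Scd1, Tagln, Jun and Nr4a1, the 15 largest falls were in 8 other genes. Aqp5, a water channel, read 7.12, 6.86, 7.98 and 7.47 at 12 h and 3.91, 4.26, 4.33 and 3.28 at 72 h, against 2.77 to 3.42 in controls. The difference was -3.42 ± 0.31 (limma adjusted p = 0.00619). Crym, which binds thyroid hormone, went from 5.88, 5.01, 5.90 and 4.13 to 2.73, 2.39, 2.35 and 2.35, a difference of -2.78 ± 0.39. Tnfrsf12a, the receptor of the cytokine TWEAK, went from 8.60, 8.82, 9.25 and 8.84 to 6.52, 6.27, 6.49 and 5.29, against 6.53 to 7.29 in controls. Hs3st1, a heparan sulfate sulfotransferase, fell by 2.58, Sytl2 by 1.58, Shfl, an antiviral protein, by 1.56, Svs5, a seminal vesicle protein, by 1.46 and Clca3a1 by 1.35. At 72 h Aqp5, Hs3st1 and Svs5 overlapped the controls, but the means of Aqp5 (3.94) and Svs5 (6.25) lay above every control (highest 3.42 and 6.11). Crym, Tnfrsf12a, Sytl2, Shfl and Clca3a1 had 72 h means below every control. In Clca3a1 the 12 h mean was below every control too (4.92 at 12 h and 3.57 at 72 h, lowest control 5.49). Dmkn (-2.76 ± 0.60, adjusted p = 0.0719) and Tesc (-2.24 ± 0.44, adjusted p = 0.0538), named after their values were seen, were not called. Aqp5 and Tnfrsf12a were called whichever mouse was left out. Hs3st1 was not called without 12 h mouse 3 (adjusted p = 0.0509), Crym without 12 h mouse 3 or 72 h mouse 2, 3 or 4 (up to 0.0599) and Svs5 without 12 h mouse 3 or 4 or 72 h mouse 3 or 4 (up to 0.053). Sytl2 was called only without 12 h mouse 1 or 2 or 72 h mouse 1 (up to 0.0587), Shfl only without 12 h mouse 2 or 72 h mouse 1 or 4 (up to 0.111) and Clca3a1 only without 12 h mouse 3 (up to 0.125). Clca3a1 was also not called after quantile normalisation (0.06) or with the error from all 18 arrays (0.0755).

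Clock genes differed in single members. Arntl, which encodes the clock activator BMAL1, read 6.49, 6.29, 6.13 and 6.22 at 12 h and 5.40, 5.40, 5.40 and 5.39 at 72 h (-0.88 ± 0.07), and Dbp, one of its targets, went from 8.61, 8.74, 8.56 and 9.13 to 9.84, 9.86, 9.85 and 9.69 (1.05 ± 0.13), below every control (lowest 10.28) at both times. They were the 2 of 16 clock genes called. Per1 differed by -0.34 ± 0.14, Per2 by -0.46 ± 0.17 and Bhlhe40 by -1.06 ± 0.29 (adjusted p = 0.146), and Nr1d1 lay near the low end of the scale at 2.07 to 2.13. Arntl was not called with the error from all 18 arrays (0.31) or from the 12 spiked arrays (0.156), nor Dbp with all 18 (0.0539). The part of the time of day in these values was not tested. Of 12 glucocorticoid-responsive genes limma called 0, and the median was 0.14. In 3 of the 12 all 72 h mice lay above all 12 h mice (over all probe sets, 4.41%).

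Cell cycle and germ cell genes were mostly not called. Ccnd1, the cyclin D1 of the G1 phase, read 8.19, 7.93, 7.83 and 8.05 at 12 h and 7.05, 6.66, 7.26 and 6.98 at 72 h (-1.01 ± 0.13), and Cdkn2d, a CDK inhibitor, went from 6.98, 6.70, 6.12 and 6.33 to 7.57, 7.75, 7.72 and 7.95 (1.21 ± 0.19). Tk1, a thymidine kinase of S phase, rose by 1.03 ± 0.17 and was the only 1 of 39 S phase and mitosis genes called. Of 18 spermatogonial, 16 meiotic and 12 pachytene markers limma called 0, with medians of -0.05, 0.10 and 0.50. Kit differed by -0.49 ± 0.19, Stra8, which starts meiosis, by -0.70 ± 0.16 (adjusted p = 0.0779), Dazl by -0.13 ± 0.19 and Sycp3 by 0.20 ± 0.18. Piwil1, the largest of the pachytene markers, differed by 1.73 ± 0.50 (adjusted p = 0.162). Ccnd1 was not called without 12 h mouse 4 or 72 h mouse 4 (adjusted p up to 0.0509) or with the error from the 12 spiked arrays (0.0713). Cdkn2d was called only without 12 h mouse 1 or 2 or 72 h mouse 1 (up to 0.0771) and Tk1 only without 12 h mouse 2 or 72 h mouse 1 (up to 0.0928), and Tk1 not with all 18 arrays (0.0768).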

How the data were processed

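RNA from 8 mice, 8 micrograms each, was hybridised to 1-colour Affymetrix MOE430A arrays, 1 per mouse. Values as deposited are taken as log2 from their range, since no scale is stated. RMA and GCRMA are both named in the submitters' processing notes, without saying which gave these values. The 64 control probe sets were left out. The platform annotation gave 20380 of the 22626 tested probe sets 1 symbol, 691 several and 1555 none, and only the first were named. Values near the low end of the scale understate a fold.

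The deposited log2 values were fitted with limma 3.58.1 in R 4.3.3 (lmFit, then eBayes; 6 residual degrees of freedom; tests two-sided; no filter), with 4 mice a group. On simulated data of this design the fit recovered 50%, 74% and 98% of changes of 0.5, 1 and 2 on the log2 scale, and 3.01% of its calls were false. The simulation drew independent normal noise with the spread of each probe set and changed probe sets at random, including those at the low end of the scale. Its shares therefore describe the simulated data and are no measure of recovery or false calls among the real calls. The number of arrays limits the precision. Gene lists (49, with 978 measured genes) are described by counts and medians, with no test.

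Named genes are the 15 largest rises and 15 largest falls among called genes whose groups did not overlap, up to 4 members of each list with the smallest p, and a fixed set of hormone, steroid, germ cell and clock genes. Other list members are examples, chosen after their values were seen. The members, the lists and the rule were chosen with earlier results of these data known. Alternatives were a replicate block, other arrays in the fit, quantile normalisation, median centring, a filter at a mean of 5, trended robust variances, the mean of a gene's probe sets and leaving out each mouse.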

Additional observations from a re-analysis of the deposited data

Results flagged for a closer look

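Among the 282 groups of 4 mice behind the named genes, 24 values (8.51%) lay apart from the other 3 of their group by more than Dixon's critical share of the group's range for 4 values, where chance gives about 1 in 20. They were spread over genes and mice, and their cause was not tested. At 12 h they were Drd4 at 2.65, Cldn3 at 2.74, Kit at 7.75 and Sod3 at 7.53 in mouse 1, Clca3a1 at 5.68 and Tgfb1 at 4.31 in mouse 3, and Myh1 at 4.10 and Wif1 at 7.16 in mouse 4. At 72 h they were Crym at 2.73, Hmgcs1 at 10.82, Nsdhl at 7.42, Hsd3b1 at 11.45, Igf1 at 9.96 and Tnni3 at 10.32 in mouse 1, and Svs5 at 6.70, Dusp1 at 4.74, Stard4 at 5.71 and Cldn3 at 3.94 in mouse 2. The others were Cst9 at 8.36 and Trim47 at 6.89 in mouse 3, and Hs3st1 at 3.23, Dbp at 9.69, Sycp3 at 12.33 and Igfbp3 at 5.08 in mouse 4. The other 3 mice were at 11.46 to 11.62 in Cst9, at 6.33 to 6.56 in Igfbp3, at 2.72 to 2.74 in Cldn3 at 72 h and at 7.21 in Nsdhl.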

How the results depend on the processing

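The direction of a call could change under few of the alternatives. The 2 groups did not overlap in any of the 533 probe sets called, so leaving out a mouse could not reverse one. The block, other arrays, filter and trended variances kept the same group means. Under quantile normalisation and median centring, which could change a direction, 0 main calls did. The mean of probe sets was checked for named genes only, with 0 reversed. With 3 residual degrees of freedom, a replicate block called 98 probe sets (56 higher, 42 lower, 27 at least 2-fold). The labels do not say that numbers pair mice, and same-numbered mice correlated at 0.107, 0.13, 0.013 and 0.068, with 12 h mouse 4 and 72 h mouse 3 at 0.311, so the numbers were not taken as pairs. The block left members called in the lists as follows: 1 cholesterol, 0 steroid, 2 androgen-responsive Sertoli, 0 immediate early, 1 matrix, 0 fatty acid, 1 lysosomal, 3 Sertoli and 1 macrophage gene. With all 18 arrays 423 probe sets were called and 52.9% of the main calls kept, with 2 immediate early, 3 matrix, 2 lysosomal and 1 fatty acid gene. Fatty acid calls were 2 with the 12 spiked arrays, 1 after quantile normalisation, 3 with means of at least 5 and 3 with trended robust variances. Leaving out 1 mouse gave 175 to 544 calls, 97 to 267 higher, 78 to 277 lower and 75 to 143 at least 2-fold. The lists then held 4 to 7 cholesterol, 2 to 3 steroid, 4 androgen-responsive Sertoli, 2 to 4 immediate early, 3 to 5 matrix, 0 to 3 fatty acid, 2 to 4 lysosomal, 5 to 6 Sertoli and 1 to 4 macrophage genes. Of the calls with all 18 arrays 58.2% were higher at 72 h, against 52.3% in the main fit. With the mean of all probe sets of a gene, Insig2 (adjusted p = 0.127), Fads2 (0.882), Elovl5 (0.0778) and Adcy3 (0.0866) were not called. Of the 94 named genes called, 42 were called whichever mouse was left out. Median centring kept 94.6% of the main calls, quantile normalisation 78.6% and leaving out 1 mouse 30.6% to 68.9%. The causes of these changes were not tested, and with 4 arrays a group the number of mice limits what can be called.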

Other observations

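The genes called higher at 72 h included 8 enzymes of the breakdown of amino acids or related compounds. They were picked from the called genes after their values were seen, with no count of how many such enzymes were measured, so they are examples and no group result. Kyat3, which transaminates kynurenine and glutamine, averaged 4.64 ± 0.27 at 12 h and 6.07 ± 0.22 at 72 h (SD, n = 4), without overlap, a rise of 1.43 ± 0.16 (log2, SE, limma adjusted p = 0.0105). Auh, of leucine breakdown, rose by 0.71 ± 0.08 and Abat, which degrades the transmitter GABA, by 0.86 ± 0.11. Ivd and Aldh6a1, of leucine and valine breakdown, rose by 1.15 and 1.16, Cdo1, of cysteine, 2.83-fold, Pcca, of propionyl-CoA, by 0.72 and Acat1 by 0.59. Kyat3 and Auh were called whichever mouse was left out, and Abat not without 12 h mouse 4 or 72 h mouse 2 (adjusted p up to 0.0537). Ivd was called only without 72 h mouse 2 (up to 0.123), Aldh6a1 only without 12 h mouse 1 or 72 h mouse 1 (up to 0.117), Cdo1 only without 12 h mouse 1 or 2 (up to 0.0744), Acat1 only without 12 h mouse 2 or 4 (up to 0.0923) and Pcca only without 12 h mouse 1 or 3 or 72 h mouse 2 (up to 0.0719). Ivd (0.061) and Aldh6a1 (0.0627) were not called after quantile normalisation, nor Acat1 with the mean of its probe sets (0.054).

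Some genes rose from 12 h to 72 h without reaching the level of untreated mice. Ddit4l, an inhibitor of mTOR signalling, read 6.02, 6.14, 5.78 and 5.99 at 12 h, 6.94, 6.91, 7.06 and 6.94 at 72 h and 7.96 to 8.58 in controls. Trim47 went from 5.94, 6.29, 5.85 and 6.02 to 6.77, 6.77, 6.89 and 6.76, against 7.67 to 8.26, and Tnni3, a troponin subunit, from 8.44, 8.81, 8.38 and 8.96 to 10.32, 9.97, 9.96 and 9.92, against 10.44 to 10.68. The 3 genes were called whichever mouse was left out. Of the 202 genes called higher, 18 had both means below the range of controls 4 to 7, 8.91% against 9.55% of all genes.

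Antioxidant enzymes went both ways. Of 37 measured, 2 were called higher and 3 lower: Mgst3, a membrane glutathione transferase, rose by 1.65 ± 0.23 and Sod2, the mitochondrial superoxide dismutase, by 0.45, while Gstm7 fell by 0.91, Sod3 by 0.95 and Gstm1 by 0.50. The Gstm genes are near-identical copies whose probe sets may share signal. Gstm7 was called whichever mouse was left out, but not with the error from all 18 arrays (adjusted p = 0.0838) or from the 12 spiked arrays (0.112). Sod2 and Sod3 were not called with all 18 arrays (0.138 and 0.172), with the 12 (0.057 and 0.215) or with the mean of their probe sets (0.205 and 0.132), and Sod2 (0.0509) and Gstm1 (0.0923) not after quantile normalisation. Mgst3 was not called without 12 h mouse 3 or 4 or 72 h mouse 2 or 4 (up to 0.0579), Sod2 and Sod3 were called only without 12 h mouse 1 (up to 0.123 and 0.119), and Gstm1 only without 72 h mouse 3 (up to 0.122). Of the list of gonadal transcription factors, Tcf21, of stromal cells, was the only 1 of 25 called and rose by 0.92 ± 0.10.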
